A study of Mus musculus with 6 samples.

Results

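The BCL2 family genes followed here are 10 genes chosen by name: the pro-survival genes Bcl2, Bcl2l1 and Mcl1, the effectors Bax and Bak1, and the BH3-only genes Bcl2l11, Bid, Bad, Bbc3 and Pmaip1. Of these, 9 had a probe set with exactly 1 gene symbol, among 22180 such genes on the array, and Bax was not analysed here. All 9 lay above the limit used for dim genes and were tested among 14787 genes. Their expression was compared between OT II transgenic CD4+ T cells grown in RPMI-1640 with 1% of the normal arginine (12 uM), 3 arrays, and the same kind of cells in complete control RPMI-1640, 3 arrays. Both media held dialyzed FBS. All cultures received 0.1 uM of an ovalbumin peptide on antigen-presenting cells, ran for 72 hours, and gave up their CD4+ cells by a second purification. The OT II transgene gives T cells a receptor for that peptide. The mice were 12 to 16 weeks old, and the study's design text names 6 of them without saying which animal gave which array. If animals were pooled or shared, the p-values measure only the spread between these cultures.

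BCL2 family proteins decide whether the outer mitochondrial membrane stays intact. Pro-survival members hold the effectors BAX and BAK in check, and BH3-only members, which sense stress such as lost growth factor signals or DNA damage, bind the pro-survival members or activate the effectors. Once the effectors open the membrane, cytochrome c escapes, the apoptosome forms around APAF1, and caspases dismantle the cell. In T cells BCL2 is known for keeping resting and memory cells alive, BCL-XL, the main product of Bcl2l1, for the survival of activated cells, MCL1 for survival at all stages, and BIM, the product of Bcl2l11, for the contraction of the response.

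Of the family, 1 pro-survival gene and 1 effector gene changed in low arginine. Bcl2l1 rose by 0.58 on the log2 scale (1.5-fold) and Bak1 fell by 0.83 (1.78-fold lower), while Bcl2, Mcl1 and all 5 BH3-only genes did not pass the test. That made 2 of 9 members at an adjusted p below 0.05 by limma, with Benjamini-Hochberg adjustment over all genes tested. Over the whole array 12.2% of genes passed (5.19% higher and 6.98% lower in low arginine), so 2 of 9 is close to the background. The median change of the 9 members was -0.11, and that of all genes tested was 0.01. The groups did not overlap for 3 members, Bcl2l1, Bak1 and Bbc3, against 32.2% of all genes tested. The same 3 had an unadjusted p below 0.05, against 27.3% of all genes tested.

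Every change here is the mean of the low arginine arrays minus that of the control arrays, on the log2 scale of the deposited values, and values are mean ± SD over 3 arrays. The base of the logarithm is not named in the sources used here and was read as 2, since no value exceeds 12.41. Array medians lay between 2.97 and 3.03. Probe sets differ in how brightly they report, so levels were not set against each other between genes. In these bulk samples, fewer cells of a type and less RNA per cell cannot be told apart. Over all genes, 767 rose and 1032 fell, or 535 and 1190 when each array was centred on its 75th percentile. Control replicate 1 stood apart from the other controls on the second principal component (22.5% of the variance, score 35.2 against -8.53 and -22.3). Of the CD4 T cell markers measured, 7 of 8 named, all had mean levels of 7.80 to 10.8 and none passed the test. Of 24 measured markers of B cells, myeloid and dendritic cells, plasma cells, neutrophils and erythroid cells, 11 lay under the dim limit of 2.48, none passed the test and the highest mean level was 3.22. Among 6 markers of CD8 and NK cells, Cd8b1 reached a mean level of 6.57, and their summed log2 values ran from 22.2 to 22.9 in low arginine and from 22.4 to 24.5 in control medium. None of these passed. Cd8b1 changed by -0.66 (limma adjusted p = 0.0632), Cd8a by -0.61 (0.241) and Klrd1 by -0.61 (0.177), while Eomes changed by 0.79 (0.0779), and Ncr1 and Klrb1c lay under the dim limit. Groups did not overlap for Cd8b1 and Eomes, and the part of such cells in the changes below was not tested.

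**Figure D1:**
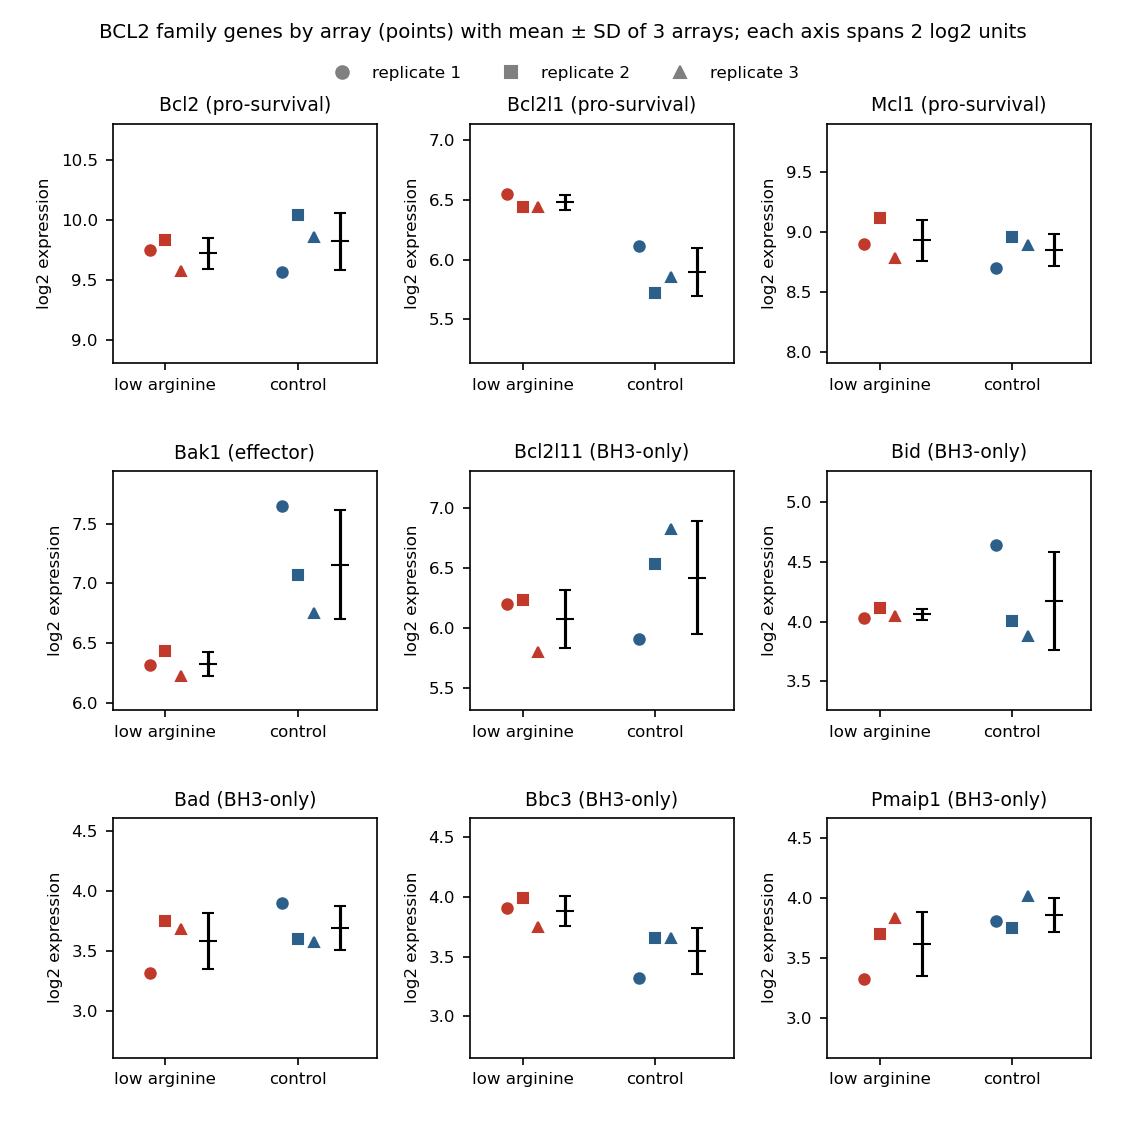
Log2 expression of the 9 BCL2 family genes measured, by array, with low arginine left (red) and control right (blue) in each panel; black marks are the mean ± SD of 3 arrays, marker shapes are replicate numbers, and each vertical axis spans 2 log2 units. The groups separate for Bcl2l1, Bak1 and Bbc3. Control replicate 1 lies farthest from the other controls in Bak1, Bcl2l11 and Bid, and also apart from them in Bbc3.

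Among the pro-survival genes, Bcl2l1 was the one that changed. It lies on chromosome 2 (chr2:152758732-152833803, GRCm38.p6). Its log2 expression was 6.55, 6.44 and 6.44 in low arginine, against 6.12, 5.72 and 5.86 in control medium. All low arginine arrays lay above all controls, and they lay closer together (6.48 ± 0.06 against 5.90 ± 0.20, SD, n = 3 each). The change was 0.58 with a standard error of 0.13 (95% interval 0.28 to 0.88, limma adjusted p = 0.028), and 805 of 14787 genes rose by more. The rise was 0.49 to 0.69 with any 1 array left out. The call held without control replicate 1 (0.69, adjusted p = 0.00465) and ended without any other single array, at adjusted p = 0.0667 without control replicate 3 and up to 0.103 without control replicate 2.

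Bcl2, the founding member of the family, did not pass. It lies at chr1:106538176-106714290. Its log2 expression was 9.75, 9.83 and 9.58 in low arginine, against 9.57, 10.04 and 9.86 in control medium. The groups overlapped, and the lowest of the 6 values was a control. The change was -0.10 (95% interval -0.44 to 0.24, limma adjusted p = 0.732). A second, dimmer probe set of Bcl2 gave -0.17 (95% interval -0.56 to 0.23).

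Mcl1, whose protein is short-lived, did not pass either. It lies at chr3:95656944-95663179. Its log2 expression was 8.90, 9.11 and 8.78 in low arginine, against 8.70, 8.96 and 8.89 in control medium. The groups overlapped almost fully, with a change of 0.08 (95% interval -0.22 to 0.39, limma adjusted p = 0.752). Its second probe set gave 0.20 (95% interval -0.41 to 0.82), with controls from 4.90 to 6.04.

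Bak1, which encodes the effector BAK, fell. It lies at chr17:27019812-27028627. Its log2 expression was 6.32, 6.43 and 6.23 in low arginine, against 7.65, 7.07 and 6.75 in control medium. All low arginine arrays lay below all controls, and the controls were spread more widely (6.33 ± 0.10 against 7.16 ± 0.46, SD, n = 3 each). The change was -0.83 with a standard error of 0.22 (95% interval -1.33 to -0.33, limma adjusted p = 0.047), and 648 genes fell by more. Control replicate 1 was the highest array, 0.74 above the mean of the other controls. Without it the change was -0.58 (adjusted p = 0.019), and without control replicate 3 it was -1.03 (0.0255). The call ended with control replicate 2 left out (adjusted p = 0.124), with low arginine replicate 1, 2 or 3 left out (0.12 to 0.156), and with no filter on dim genes (0.0567).

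**Figure D2:**
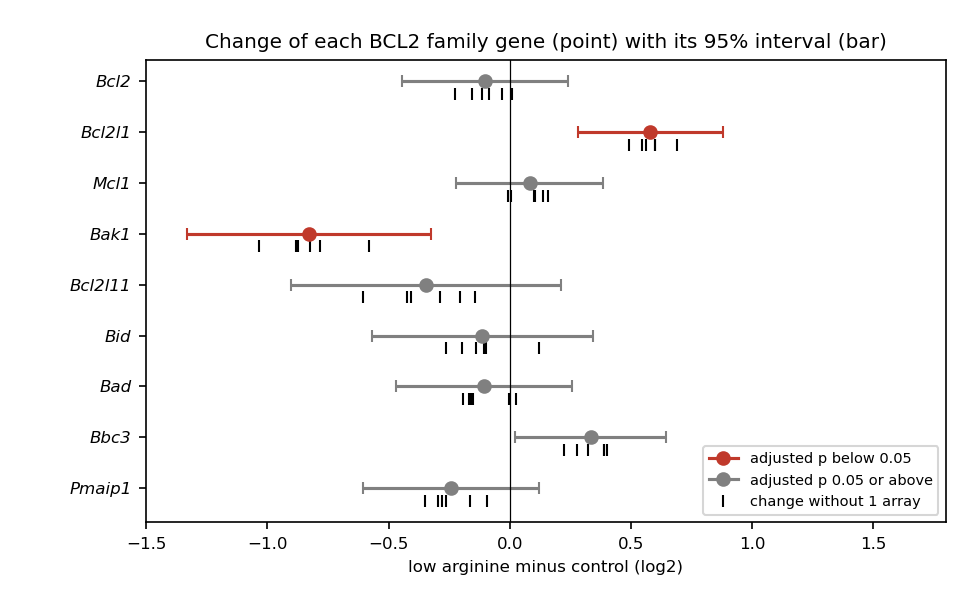
Change of each BCL2 family gene, as the log2 difference of low arginine minus control (horizontal axis), as a point with its 95% interval from limma; ticks under each bar are the changes with 1 array left out, and red marks an adjusted p below 0.05. Bcl2l1 lies above 0 and Bak1 below 0 in every fit, while the ticks of Bcl2, Mcl1, Bid and Bad fall on both sides of 0.

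The promoter sequences of the called members, and of Bcl2l11, which passed in some fits and holds a FOXO match, are shown because these genes carry the calls of the family. RefSeq windows of 300 bases (250 before and 50 after an annotated start, GRCm38.p6) matched 9 of the 10 genes with 15 windows. Pmaip1 was not matched. A gene with several windows has several starts, and some of these lie inside the gene's span. Printed here are the 250 bases before such a start, on the gene's strand, with capitals for a motif match. The first is the middle of 3 windows of Bcl2l1 (chr2:152830718-152830967, minus strand), printed as the only 1 of the 3 with a motif match. All 3 lie inside the span given above for Bcl2l1. The second is the window of Bak1 (chr17:27028628-27028877, minus strand). The third is the first of 2 windows of Bcl2l11 (chr2:128125788-128126037, plus strand).
Bcl2l1: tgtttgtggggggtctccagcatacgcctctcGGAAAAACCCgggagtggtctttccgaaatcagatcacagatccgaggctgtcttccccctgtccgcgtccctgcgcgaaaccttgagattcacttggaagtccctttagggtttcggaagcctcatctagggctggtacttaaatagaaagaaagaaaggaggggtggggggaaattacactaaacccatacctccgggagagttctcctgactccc
Bak1: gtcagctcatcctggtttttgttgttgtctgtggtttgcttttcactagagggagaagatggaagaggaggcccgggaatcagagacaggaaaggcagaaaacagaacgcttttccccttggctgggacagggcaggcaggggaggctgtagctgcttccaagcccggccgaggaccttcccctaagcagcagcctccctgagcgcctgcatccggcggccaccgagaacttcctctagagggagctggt
Bcl2l11: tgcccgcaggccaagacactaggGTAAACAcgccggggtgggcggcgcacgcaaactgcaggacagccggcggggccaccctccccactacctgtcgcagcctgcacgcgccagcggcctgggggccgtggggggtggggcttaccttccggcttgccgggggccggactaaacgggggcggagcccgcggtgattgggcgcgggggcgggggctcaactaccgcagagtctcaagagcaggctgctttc

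Motifs were searched on both strands of the 300-base windows. The NF-kB pattern (GGG, any 2 bases, TTTCC) matched 1 window each of Bcl2l1 (the capitals above), Mcl1 and Bbc3, and 1.63% of all 32851 mouse windows. The FOXO pattern TGTTTAC matched 1 window each of Bcl2l11 (the capitals above, on the opposite strand) and Bbc3, and 3.65% of all windows. The pattern of the hypoxia factors, ACGTG, matched windows of Bbc3 and Bax and 19.6% of all windows; where it reads CACGTG it matches both strands at once. The p53 half-site, searched by its consensus, matched the window of Bax and 8.36% of all. The STAT pattern TTCNNNGAA (8.30% of all windows), the cyclic AMP element TGACGTCA (1.79%) and the ATF4 and C/EBP pattern TGATGNAA (3.97%) matched 0 of the 15 windows. The window of Bak1 held none of these patterns. A match describes letters only. The GC content of the 250 bases was 53.2% for the printed window of Bcl2l1, and 48.4% and 47.6% for its other windows. It was 58.4% for Bak1, and 72.0% for the printed window of Bcl2l11 and 73.2% for its other. The median was 52.4% over all windows.

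None of the 5 BH3-only genes passed the test with all arrays. Bcl2l11 lies at chr2:128126038-128162547. The values were 6.20, 6.23 and 5.79 in low arginine, against 5.90, 6.53 and 6.83 in control medium. Control replicates 2 and 3 lay above every low arginine array, and control replicate 1 lay among them. The change was -0.34 (95% interval -0.90 to 0.21, limma adjusted p = 0.426). Control replicate 1 differed by -0.78 from the mean of the other controls. Without it the change was -0.60 and Bcl2l11 passed (adjusted p = 0.0374), where 22.5% of all genes did. Array weights brought Bcl2l11 past the threshold too (-0.44, limma adjusted p = 0.0355), where 37.3% of all genes passed. These weights gave control replicate 1 only 0.239, so the 2 fits are not independent.

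Bbc3, which encodes PUMA, a p53-induced BH3-only protein, had a change of the opposite sign. It lies at chr7:16308398-16318334. Expression was 3.90, 3.99 and 3.74 in low arginine, against 3.32, 3.65 and 3.66 in control medium. All low arginine arrays lay above all controls. The change was 0.33 with an interval of 0.02 to 0.65, at an unadjusted p of 0.0389, but it did not pass after adjustment by limma (adjusted p = 0.156). Control replicate 1 differed by -0.33 from the mean of the other controls. With that array left out the change was 0.22 (limma adjusted p = 0.219), and the unadjusted p was not below 0.05. The same held for the unadjusted p without low arginine replicate 1 or 2.

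Pmaip1, which encodes NOXA, a partner of MCL1, lies on chromosome 18. The values were 3.32, 3.70 and 3.83 in low arginine, against 3.81, 3.75 and 4.02 in control medium. The groups overlapped through low arginine replicate 3, with a change of -0.24 (95% interval -0.60 to 0.12, limma adjusted p = 0.389).

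Bid, which links death receptors to mitochondria after cleavage by caspase 8, lies at chr6:120893119-120917062. Expression was 4.03, 4.11 and 4.05 in low arginine, against 4.64, 4.0 and 3.88 in control medium. The low arginine values lay within the range of the controls, which control replicate 1 set, and the change was -0.11 (95% interval -0.57 to 0.34, limma adjusted p = 0.779). Without control replicate 1 the change had the opposite sign (0.12, adjusted p = 0.476).

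Bad, a BH3-only gene whose protein is held inactive by growth factor kinases, lies at chr19:6941861-6951905. The values were 3.32, 3.75 and 3.68 in low arginine, against 3.90, 3.60 and 3.57 in control medium. The groups overlapped (change -0.11, 95% interval -0.47 to 0.26, limma adjusted p = 0.729). A probe set naming both Gpr137 and Bad was not used. The levels of Bad, Bbc3, Pmaip1 and Bid averaged 3.64 to 4.12 over all arrays, against a dim limit of 2.48.

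Control replicate 1 was the highest or lowest control for 8 of the 9 members, and for 77.6% of all genes tested. The controls had the larger SD for 6 of 9 members and for 66.2% of all genes. With control replicate 1 left out, 3 of 9 members passed (Bcl2l1 higher, Bak1 and Bcl2l11 lower), where 22.5% of all genes did. Array weights gave the same count, where 37.3% of all genes passed. With control replicate 3 left out, Bak1 alone passed, where 9.24% of all genes did. With control replicate 2 left out, 0 of 9 passed, where 3.38% of all genes did. The count was also 0 of 9 with low arginine replicate 1, 2 or 3 left out, where 6.73%, 3.44% and 4.0% of all genes passed in that order. In those 4 fits, 2 or 3 of 9 members had an unadjusted limma p below 0.05, Bcl2l1 and Bak1 in each of them, where 20.7% to 22.6% of all genes did.

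**Figure D3:**
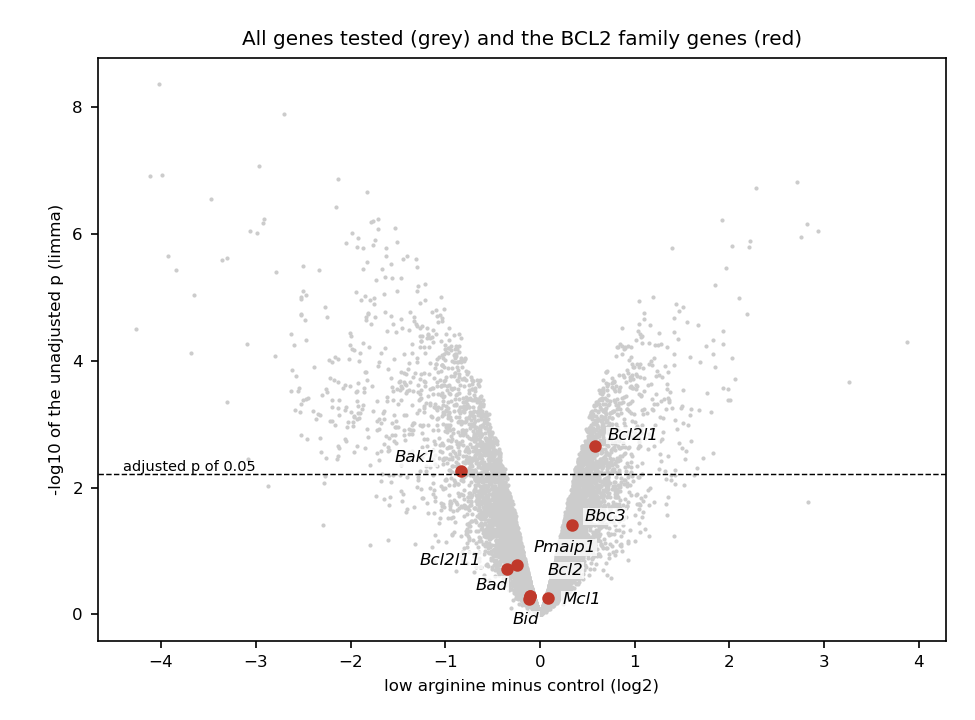
Each of 14787 genes (grey) and the 9 BCL2 family genes (red) by log2 change, low arginine minus control (horizontal axis), and -log10 of the unadjusted limma p (vertical axis); the dashed line is the adjusted p of 0.05. Only Bcl2l1 and Bak1 lie above the line, Bak1 close to it.

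Pairs of members whose products bind each other or act in opposite ways were compared within each array. This removes a shift only where both probe sets report it to the same extent, which was not tested. The difference of 2 probe sets has no meaningful zero, so only its shift between groups is read. Bbc3 minus Bcl2 was -5.85, -5.84 and -5.84 log2 units in low arginine, against -6.25, -6.39 and -6.20 in control medium, a shift of 0.43. The groups did not overlap, and the low arginine arrays lay closer together (SD 0.0067 against 0.099). Bcl2l11 minus Bcl2 was -3.55, -3.60 and -3.79 in low arginine, against -3.67, -3.51 and -3.03 in control medium, a shift of -0.24 with overlapping groups. Pmaip1 minus Mcl1 was -5.58, -5.41 and -4.95 in low arginine, against -4.89, -5.21 and -4.88 in control medium, a shift of -0.32 with overlap. The two-sided exact permutation p was 0.1 for Bbc3 minus Bcl2, 0.4 for Bcl2l11 minus Bcl2 and 0.2 for Pmaip1 minus Mcl1 (0.3, 0.4 and 0.3 adjusted over the 3 pairs). With 3 arrays against 3, 0.1 is the smallest p this test allows, so none could pass.

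Bak1 minus Bcl2l1, chosen after their values were seen and given with no test, was -0.23, -0.01 and -0.21 in low arginine, against 1.54, 1.35 and 0.89 in control medium. The shift was -1.41, and it lay between -1.59 and -1.27 with 1 array left out.

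Among other members of the family and BH3-like genes, the calls fell on BNIP genes. Of 16 measured, 12 were tested, 0 rose and 2 fell (16.7% called against 12.2% of all genes, list median -0.08). The 2 were the hypoxia-induced mitophagy receptor Bnip3 and Bnip1, a SNARE of the endoplasmic reticulum with a BH3-like stretch. Bnip3 was 2.94, 3.13 and 3.79 in low arginine, against 7.21, 7.59 and 7.40 in control medium. Its change of -4.11 (limma adjusted p = 3.24e-04) stands far outside the rest of the list, and it passed without any single array. Bnip1 changed by -0.49 (limma adjusted p = 0.0399). That call ended without control replicate 2 or any 1 low arginine array, and with a trended and robust prior, leaving 1 gene, Bnip3, in each case. Bnip2 just missed (-0.38, limma adjusted p = 0.0508). The pro-survival gene Bcl2l2 changed by -0.30 (limma adjusted p = 0.24), the effector-like gene Bok by 0.10 (0.727) and the BH3-only gene Bmf by 0.09 (0.659). Of the Bcl2a1 copies, which may share signal, Bcl2a1a changed by -0.10 (limma adjusted p = 0.839) and Bcl2a1c by -0.06 (0.805). Bcl2a1b and Bcl2a1d had only probe sets that name several genes and were not analysed here. Bcl2l10, Bcl2l14, Bcl2l15 and Hrk lay under the dim limit.

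Downstream of the family, 15 genes of mitochondrial apoptosis were tested, of which 5 fell and 1 rose (40.0% called against 12.2% of all genes, list median -0.20). Vdac1, a channel of the outer mitochondrial membrane, was 8.12, 8.20 and 8.12 in low arginine, against 9.36, 9.48 and 9.22 in control medium, a change of -1.21 (limma adjusted p = 0.00153). The messages of 4 proteins that reside between the mitochondrial membranes passed the test, 3 lower and 1 higher. Aifm1, a flavoprotein that also serves respiratory chain assembly, changed by -0.81 (limma adjusted p = 0.0344), the protease Htra2 by -0.69 (0.0197) and the nuclease Endog by -0.57 (0.0196). Diablo, an antagonist of the inhibitors of apoptosis, was 5.52, 5.64 and 5.71 in low arginine, against 5.27, 4.90 and 4.57 in control medium, a rise of 0.71 (limma adjusted p = 0.0417). Cycs, which encodes cytochrome c, changed by 0.20 (95% interval -0.45 to 0.85, limma adjusted p = 0.712), with control replicate 1 lying 1.08 above the other controls. Without that array Cycs rose by 0.56 (adjusted p = 0.0106).

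The apoptosome gene Apaf1 was 6.63, 6.73 and 6.59 in low arginine, against 7.01, 7.03 and 7.10 in control medium, a change of -0.40 (limma adjusted p = 0.044). The groups did not overlap. Casp9, its partner caspase, changed by 0.11 (95% interval -0.18 to 0.40, limma adjusted p = 0.648). The count of called genes in this list was 1 with control replicate 2, or low arginine replicate 2 or 3, left out (Vdac1 in each fit), and 2 without low arginine replicate 1. Apaf1 also lost its call after quantile normalization or with a trended and robust prior, and Diablo after quantile normalization or centring on the median or 75th percentile.

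Among caspases and their inhibitors, 2 of 12 tested fell and 0 rose (16.7% called against 12.2% of all genes, list median -0.06). The executioner caspase gene Casp6 was 5.22, 5.37 and 5.42 in low arginine, against 8.27, 7.06 and 6.91 in control medium. The groups were separated by more than the whole spread of the controls, with a change of -2.08 (limma adjusted p = 0.00958), or -1.65 without control replicate 1, the highest array. Birc5, which encodes survivin, changed by -2.47 (limma adjusted p = 0.0117). It was 5.04, 3.49 and 3.28 in low arginine, against 6.56, 6.32 and 6.35 in control medium. Low arginine replicate 1 lay well above the other low arginine arrays. The call of Birc5 ended without control replicate 2 or low arginine replicate 2, leaving 1 gene called in each case. The inhibitors Xiap, Birc2 and Birc3 changed by 0.10, -0.05 and -0.06 and did not pass.

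In the death receptor pathway, 1 of 14 genes rose and 1 fell (14.3% called against 12.2% of all genes, list median 0.11). Tnf, the cytokine, was 9.0, 9.27 and 9.23 in low arginine, against 8.31, 7.81 and 7.82 in control medium, a rise of 1.18 (limma adjusted p = 0.00639). Fasl, the ligand by which T cells kill, was 3.90, 3.94 and 3.68 in low arginine, against 5.30, 5.81 and 5.95 in control medium, a change of -1.85 (limma adjusted p = 0.00203). Both passed without any single array. The receptor gene Fas was 7.63, 7.90 and 7.76 in low arginine, against 6.73, 7.36 and 7.5 in control medium. Its groups did not overlap, but its change of 0.57 (95% interval 0.09 to 1.04) did not pass (limma adjusted p = 0.119). Without control replicate 1, 5 genes of this list passed, where 22.5% of all genes did.

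**Figure D4:**
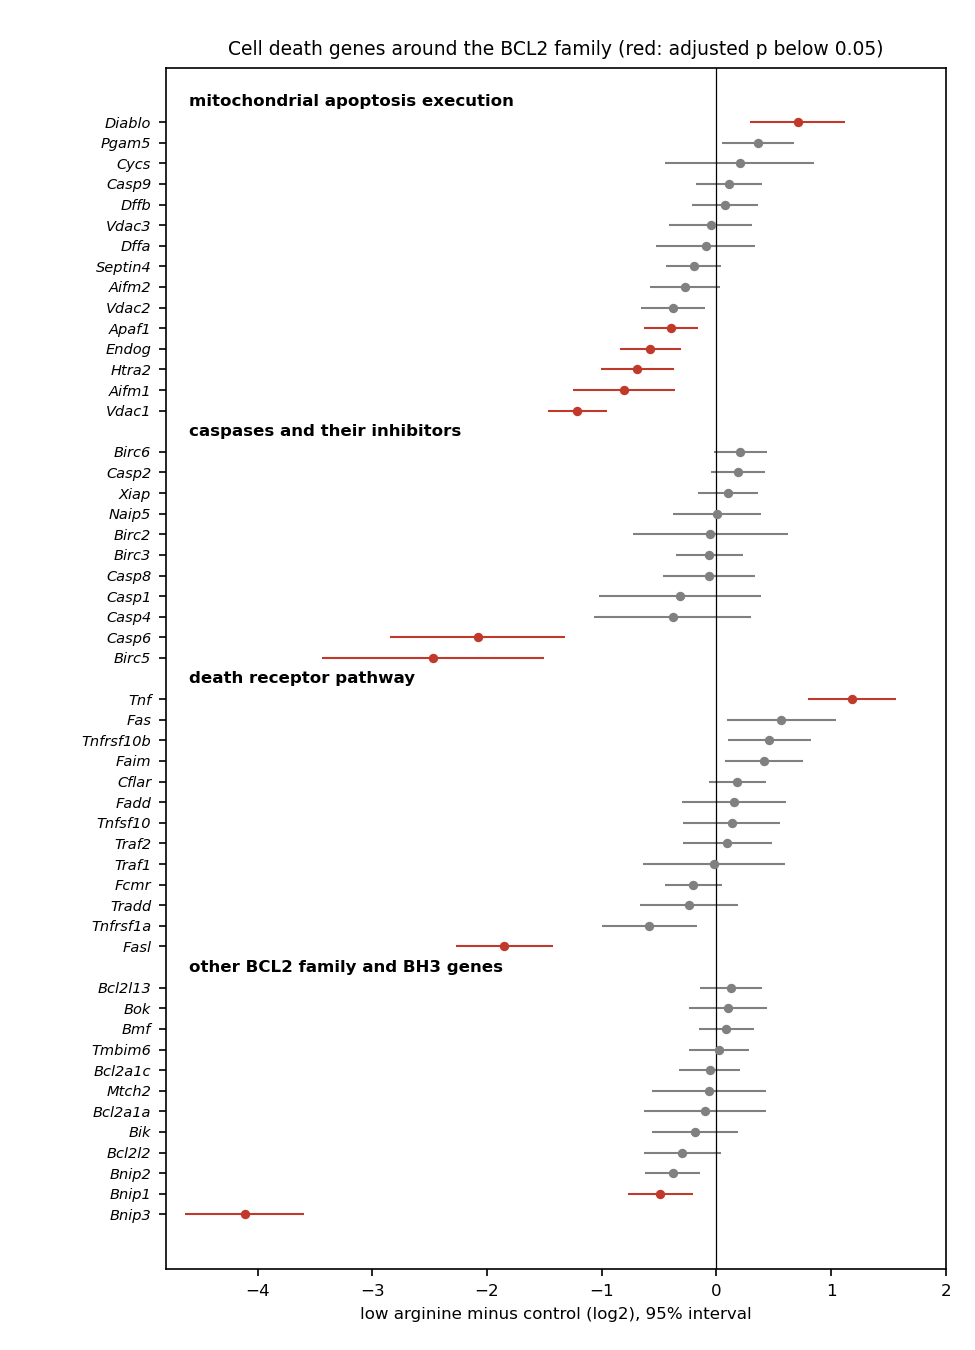
Changes of cell death genes around the BCL2 family, as the log2 difference of low arginine minus control (horizontal axis), each with its 95% interval from limma, grouped by list, each gene once; red marks an adjusted p below 0.05. Bnip3, Birc5, Casp6, Fasl and Vdac1 lie farthest below 0 and Tnf farthest above among the 4 lists plotted.

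Among 25 known regulators of these genes, 6 rose and 0 fell (24% called against 12.2% of all genes, list median 0.13). Rel, the NF-kB subunit c-Rel, was 9.26, 9.30 and 9.45 in low arginine, against 7.95, 8.66 and 8.72 in control medium, a change of 0.89 (limma adjusted p = 0.032). Stat5a, which carries interleukin 2 signals, rose by 0.72 (limma adjusted p = 0.0199). Kmt2d, a histone methyltransferase, rose by 0.69 (limma adjusted p = 0.0204). Foxo1, a transcription factor that growth factor kinases hold out of the nucleus, was 8.40, 8.37 and 8.48 in low arginine, against 7.80, 7.89 and 7.85 in control medium, a change of 0.57 (limma adjusted p = 0.0129). Mapk8, the kinase JNK1, rose by 0.56 (limma adjusted p = 0.0328) and the NF-kB subunit Rela by 0.37 (0.0496). Foxo3 changed by 0.06 (limma adjusted p = 0.89) and Ddit3, the stress factor CHOP, by 0.51 (0.486). Ddit3 in control replicate 1 differed by -1.62 from the mean of the other controls, and without that array it changed by -0.03. Trp53 was not analysed here. The count of called regulators was 0 with control replicate 2, or low arginine replicate 2 or 3, left out, and 1 without low arginine replicate 1. Rela also lost its call after quantile normalization, centring on the median or 75th percentile, or with a stricter filter on dim genes, Mapk8 after centring on the 75th percentile, both with the replicate number as a block, and Foxo1 with the mean of its probe sets.

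Genes that set the turnover of the MCL1 protein moved in both directions, with 2 of 9 higher and 2 lower. That was 44.4% called, against 12.2% of all genes (list median 0.13). The ubiquitin ligases Marchf5 and Huwe1 rose by 0.53 (limma adjusted p = 0.0254) and 0.45 (0.0456). Ube2c and Cdc20, which act with the anaphase-promoting complex, changed by -2.45 (limma adjusted p = 0.0246) and -1.66 (0.0143). Ube2c was 6.79, 4.99 and 4.43 in low arginine, with replicate 1 well above the others, as for Birc5. Cdc20 also counts among the mitosis genes below, all of which fell, and Ube2c was not in that list. The part of the mitosis genes in these 2 calls was not tested. The count was 0 with control replicate 2, or low arginine replicate 2 or 3, left out, 1 with control replicate 3 left out and 2 with low arginine replicate 1 left out. Huwe1 lost its call after centring on the median or 75th percentile.

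Cdc20 and Birc5 also stand in the mitosis list, where all 19 genes tested fell (list median -2.30), against 6.98% of all genes. Its 3 largest changes were -2.79 (Cdc25c), -2.63 (Bub1) and -2.55 (Aurkb), and Mki67 changed by -1.63 (limma adjusted p = 0.0228). The summed log2 values of that list were 95.2 to 124.9 in low arginine and 148.2 to 149.0 in control medium. Of the 19, 4 passed with control replicate 2 left out, 3 with low arginine replicate 2 left out and 10 with low arginine replicate 3 left out. Within the low arginine group the SDs of Bak1 and Bcl2l1 were 0.10 and 0.06, and that of Mki67 was 0.78. The part of the mitosis genes in the changes of Bak1 and Bcl2l1 was not tested.

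Of 14 p53 targets of cell death tested, among them Bbc3 and Pmaip1, 1 rose and 1 fell. That was 14.3% called, against 12.2% of all genes (list median 0.15). Zmat3, an RNA-binding p53 target, rose by 1.29 (limma adjusted p = 0.0156), and Apaf1 fell, as given above. The count was 4 without control replicate 1, 0 with control replicate 2, or low arginine replicate 2 or 3, left out, and 1 without control replicate 3 or low arginine replicate 1.

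**Figure D5:**
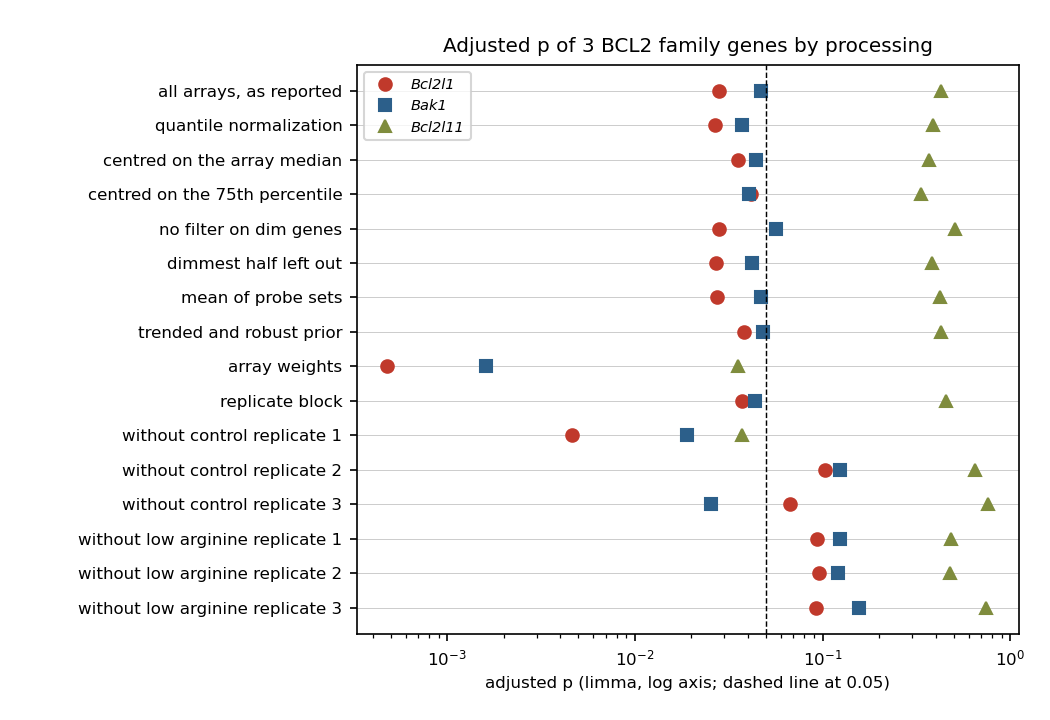
Adjusted p from limma (horizontal log axis, dashed line at 0.05) of Bcl2l1, Bak1 and Bcl2l11 under each processing alternative and with each array left out. Bcl2l1 and Bak1 lie left of the line in most fits of all 6 arrays and right of it in most fits of 5, and Bcl2l11 lies left of it only with array weights or without control replicate 1.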

How the data were processed

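RNA from 6 cultures of stimulated OT II CD4+ T cells was hybridised to whole-transcript microarrays, 1 array per culture. The deposited values were taken to be log2 expression per probe set, already normalized. The submitters' processing notes name the R package oligo, and how the values were normalized is not given in the sources used here. Their log base and normalized state were inferred from their range, which runs from 0.956 to 12.41. Of 41345 probe sets, 23521 named 1 gene symbol, 1814 several and 16010 none. The brightest probe set with 1 symbol stood for each of 22180 genes, and the 7393 dimmest genes, under a mean of 2.48, were left out. Linear models with moderated variances (limma 3.58.1, run under R 4.3.3, group as the only term) were fitted, with Benjamini-Hochberg adjustment over 14787 genes and a threshold of 0.05. The code of the fit was run on simulated data with the same spread in both groups and no outlying array. Such data differ from these arrays, so that run does not bear on the calls given here. The number of arrays limits the precision.

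Members and gene lists (168 of 184 list genes matched) were chosen with earlier results of these data known. Named genes are all members, every called gene of a list with 6 or fewer (otherwise the 3 largest changes each way), and a fixed set that includes Foxo1, Foxo3, Ddit3, Casp9, Apaf1, Cycs, Bcl2l2, Bmf, Bok, Fas, Mki67 and the Bcl2a1 copies. Xiap, Birc2, Birc3, Bnip2, Aurka, Akt1 and the CD8 and NK markers were named after their values were seen. Bax, and so its pair with Bcl2, and Trp53 were not analysed here. Alternatives changed the normalization, the filter on dim genes, the probe set rule, the prior, array weights, the replicate block and the arrays used.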

Additional observations from a re-analysis of the deposited data

How the results depend on the processing

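Of the 9 alternatives that keep all arrays, array weights moved most. They gave control replicate 2 a weight of 5.19 and control replicate 1 one of 0.239, and called 5514 genes (2777 higher and 2737 lower in low arginine). With 1 array left out, 500 to 3325 genes were called, 161 to 1626 higher and 338 to 1699 lower. The count of BCL2 family members higher was 0 to 1 with 1 array left out. The count lower was 0 with no filter on dim genes, 2 with array weights and 0 to 2 with 1 array left out. For the related lists, array weights called 4 of 12 other family genes, 12 of 15 of mitochondrial apoptosis and 5 of 12 caspases and inhibitors. They also called 7 of 14 of the death receptor pathway, 14 of 25 regulators and 7 of 14 p53 targets. Over all genes, array weights called 37.3%. A trended and robust prior (11.1% of all genes called) called 1 other family gene and 1 p53 target. Quantile normalization (12.1% of all genes called) called 1 p53 target. The fits with 1 array left out called 3.38% to 22.5% of all genes. Their counts ran over 1 to 3 other family genes, 1 to 8 of mitochondrial apoptosis, 1 to 2 caspases and 2 to 5 of the death receptor pathway. They also ran over 0 to 9 regulators, 0 to 4 of MCL1 turnover, 0 to 4 p53 targets and 3 to 19 mitosis genes. Signs were compared over the fits for the members, the called list genes and the fixed set of named genes only. Among these, 9 genes, none of them called in the fit reported, took the opposite sign in some fit. Other genes given in the text, such as Birc2, were not checked in this way. With 1 array left out, Bcl2 ran over -0.23 to 0.0091, Mcl1 over -0.0084 to 0.16, Bid over -0.26 to 0.12, Bad over -0.19 to 0.027 and Foxo3 over -0.13 to 0.21. Ddit3 likewise ran over -0.027 to 0.84, Cycs over -0.0065 to 0.56, Bcl2a1a over -0.27 to 0.095 and Bcl2a1c over -0.10 to 0.020. Array weights gave 0.049 for Bid, -0.0025 for Foxo3, -0.041 for Ddit3 and 0.018 for Bcl2a1c, and centring on the 75th percentile gave -0.0035 for Foxo3. Cycs passed with array weights (0.48, adjusted p = 0.0242). Bbc3 minus Bcl2 moved to 0.52 with array weights. Of the 42 called genes among the members and related lists, 8 were called in all 6 fits with 1 array left out (Bnip3, Vdac1, Casp6, Fasl, Tnf, Bub1, Aurka and Cdc25c). The cause of these moves was not tested, beyond the smaller number of arrays.

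Both groups number their arrays 1 to 3, and the labels do not say that a number marks a shared mouse or day. Deviations of same-numbered arrays correlated at 0.121, 0.0588 and 0.141, each array correlating best with its own number, which is a hint from the data only. With the replicate number as a block, 1568 genes were called (632 higher, 936 lower), Bcl2l1 at an adjusted p of 0.0371 and Bak1 at 0.0437. The block left 3 genes called in mitochondrial apoptosis (without Aifm1, Diablo and Apaf1), 2 in MCL1 turnover (without Huwe1 and Marchf5), 1 among p53 targets (without Apaf1) and 5 regulators (without Mapk8 and Rela, with Akt1 gained, adjusted p = 0.0444).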
